A study of Mus musculus with 15 samples.

Results

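The comparison set cortex of presenilin knockout mice that drank nicotine against cortex of wild-type mice that drank water, and asked what difference from the untreated normal cortex remained in the knockout under nicotine. Both groups came from a design in which mice aged 8 months drank either plain water or nicotine (100 µg/ml) over 3 months, after which behaviour was tested and prefrontal forebrain cortex was taken for RNA-seq. The WT water group (wild-type C57BL6/J, plain water) had 4 libraries. The DKO nicotine group (PS1/PS2 DKO, a conditional double knockout of presenilin 1 and presenilin 2, nicotine in the water) had 3 libraries. The 4 DKO water libraries (the same knockout, plain water) are given beside them for orientation, and the 4 WT nicotine libraries entered only the estimate of the spread. Members were the genes with at least 1 FPKM (fragments scaled to transcript length and sequencing depth) in at least 3 of the 7 libraries of the 2 groups compared, which were 12467 of the 21878 rows of each table. Genotype and drink both differ between these groups, so their contributions to a difference cannot be told apart here. Which promoter drives the recombinase of the knockout was not given in the sources used here. The labels number the libraries without saying that each is a separate mouse, so the p-values speak only of variation from library to library, which may be technical.

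Presenilins form the catalytic core of gamma-secretase, the membrane protease that cuts APP to amyloid peptides, releases the signalling domain of Notch and cleaves many other membrane proteins. Mice that lose both presenilins in excitatory forebrain neurons are known for progressive memory loss, synaptic failure, gliosis and loss of cortical neurons. Nicotine opens nicotinic acetylcholine receptors, ligand-gated cation channels that in cortex sit on axon terminals and interneurons.

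The libraries held 16334904 to 19469215 reads in genes, as recovered from the values. At that depth 1 FPKM in a transcript of median length rested on 65.6 reads. The tissue carried the markers of its label: Slc17a7, the vesicular glutamate transporter of cortical excitatory neurons, stood at 556 to 569 FPKM in DKO nicotine and 531 to 574 FPKM in WT water. Among the 7 libraries compared, replicate 2 of DKO nicotine stood apart in its Y-linked genes. Ddx3y, an RNA helicase, was at 0.0989 FPKM there, against 12.9 and 13.1 FPKM in the other two libraries of its group and 9.96 to 12.8 FPKM in WT water. The WT nicotine libraries, which entered the estimate of the spread, were also low in Ddx3y, at 0.0228 to 0.065 FPKM. The labels do not give sex, and the counts of calls are therefore also given without DKO nicotine replicate 2. Of 13 tested markers of striatum, the tissue under the frontal cortex, 2 were called higher and 1 lower in DKO nicotine, and 3 did not overlap. Over all genes tested 25.6% were called higher, 11.9% were called lower and 40.5% did not overlap. Drd2, the D2 dopamine receptor, overlapped, with 4.27 to 8.23 FPKM in DKO nicotine and 4.12 to 7.59 FPKM in WT water. Ppp1r1b, the phosphatase inhibitor DARPP-32, stood at 103 to 130 FPKM against 71.4 to 95.6 FPKM (0.46, limma adjusted p = 0.0296). That call was lost after rescaling (0.37), with no filter (0.46), and without DKO nicotine replicate 1 or 3 or WT water replicate 2 or 4 (0.37 to 0.45). Pdyn, prodynorphin, rose by 0.74 while Foxp1, which cortical neurons also express, fell by 0.20. Of 20 markers of leukocytes other than microglia 19 were in the tables, and none of the 3 that reached the filter was called, while without DKO nicotine replicate 2 or WT water replicate 2 a single one, S100a9, was. Cd3e, a chain of the T cell receptor complex, stood at 0 to 0.212 FPKM across the 7 libraries. Cd3g, another chain of it, read 0.328, 0.104 and 0.157 FPKM in DKO nicotine and 0 FPKM in every WT water library. Cd8a, Cd8b1, Klrb1c and Nkg7, also far under the filter, were higher in DKO nicotine without overlap. The other listed markers under the filter overlapped or, for Ncr1, stood at 0 in all 7 libraries.

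Psen2, the knocked-out gene that was analysed here (NCBI gene 19165, GRCm38.p6 chr1:180227004-180263467), stood at 1.76, 1.36 and 1.59 FPKM in DKO nicotine and at 5.44, 7.14, 6.94 and 6.23 FPKM in WT water. Every knockout library lay below every wild-type library. The log2 difference was -1.53 (SE 0.09, limma adjusted p = 1.46e-09), and DKO water gave nearly the same mean, 1.51 ± 0.179 FPKM (SD, n = 4).

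The knockout cortex under nicotine was far from the untreated normal cortex. Of 12467 genes, 4674 passed the test (limma with an intensity trend on log2(FPKM + 1), Benjamini-Hochberg adjusted p under 0.05), which is 37.5%. Higher in DKO nicotine were 3189 genes (25.6%) and lower were 1485 (11.9%). Most of these differences were small: the median size among called genes was 0.29 on the log2 scale. Large differences went mostly upward, since 165 called genes rose by at least 1 log2 unit and 15 fell by as much. By at least 2 units, 23 genes rose and 0 fell. The 7 libraries did not overlap between the groups for 5051 genes (40.5%). The first principal component of the 7 libraries carried 71.5% of the variance and separated the groups without overlap. The split of calls depended on scaling: after median-of-ratios rescaling, which lowered the median difference of all genes by 0.07 log2 units, 2076 genes were higher and 2528 lower, or 45.1% higher in place of 68.2%, and no gene was called in opposite directions. Without DKO nicotine replicate 2, 3032 genes were higher and 1349 lower.

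**Figure D1:**
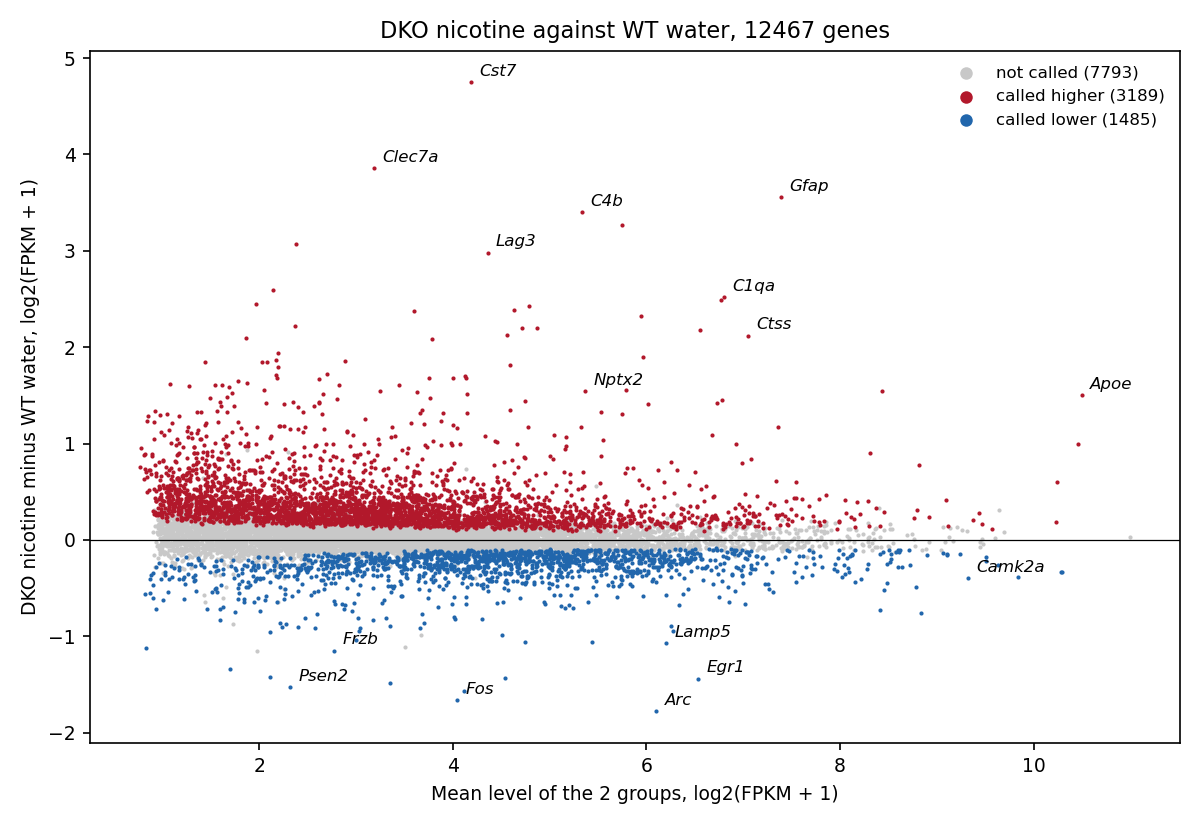
Each point is 1 of the 12467 genes: the x axis gives its mean level over DKO nicotine and WT water as log2(FPKM + 1), the y axis the difference DKO nicotine minus WT water on the same scale. The 3189 genes called higher (red) reach up to 4.75 at Cst7, while the 1485 called lower (blue) end at -1.78 at Arc.

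The direct contrast with the same knockout on plain water was small. DKO nicotine differed from DKO water in 20 of the 12467 genes (0.16%), 13 higher and 7 lower, and 1754 genes had an unadjusted p under 0.05. This contrast shares the DKO nicotine libraries with the main one, and DKO water against WT water shares the WT water libraries, so values of the 3 groups are set side by side below and no agreement between contrasts is read from them. The 20 calls depended on the fit: limma on only these groups called 0 genes (1332 at an unadjusted p under 0.05), and limma voom on reads recovered from the FPKM values called 71 higher and 16 lower. Without DKO water replicate 1 or replicate 3 a single gene was called, higher, without DKO nicotine replicate 1 it was 3 higher and 3 lower, without replicate 2 it was 4 higher and 0 lower, without DKO water replicate 2 it was 7 higher and 2 lower, and without DKO nicotine replicate 3 it was 44 higher and 13 lower.

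Genes of activated microglia, the resident phagocytes of the brain, made up most of the 12 largest rises. Cst7 (NCBI gene 13011, chr2:150570415-150578944), which encodes the cathepsin inhibitor cystatin F, stood at 33.2, 44.0 and 25.5 FPKM in DKO nicotine and at 0.376, 0.112, 0.313 and 0.337 FPKM in WT water. Its mean was 120-fold higher, and its log2 difference was 4.75 (SE 0.19, limma adjusted p = 1.73e-11). Clec7a, the beta-glucan receptor dectin-1, read 15.7, 17.1 and 15.2 FPKM against 0.247, 0.129, 0.12 and 0.181 FPKM, a difference of 3.86 (SE 0.09). Both genes were close to absent from the normal cortex, and no DKO nicotine library came near a WT water library. Itgax, the integrin CD11c, stood at 8.77, 10.7 and 5.49 FPKM against at most 0.14 FPKM in WT water (log2 difference 3.07, SE 0.15). All 3 passed the filter only through the DKO nicotine group, as did 180 members in all, of which 175 were called, so their call is in part set by the filter. Lag3, an inhibitory receptor known from T cells, rose from 3.31, 3.97, 3.77 and 3.29 FPKM in WT water to 30.5, 44.7 and 31.4 FPKM, a difference of 2.98 (SE 0.11). Lyz2, lysozyme, rose from 9.08 ± 0.52 FPKM (SD, n = 4) to 96.4 ± 12.6 FPKM (SD, n = 3). Lilrb4a, an inhibitory immune receptor with near-identical copies, and the chemokine Ccl3 were also among the 12 largest rises, at 5.64 ± 1.48 and 6.55 ± 0.708 FPKM (SD, n = 3) against 0.197 ± 0.0684 and 0.278 ± 0.297 FPKM (SD, n = 4). Both likewise passed the filter only through DKO nicotine, so their lack of overlap is set by the filter.

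**Figure D2:**
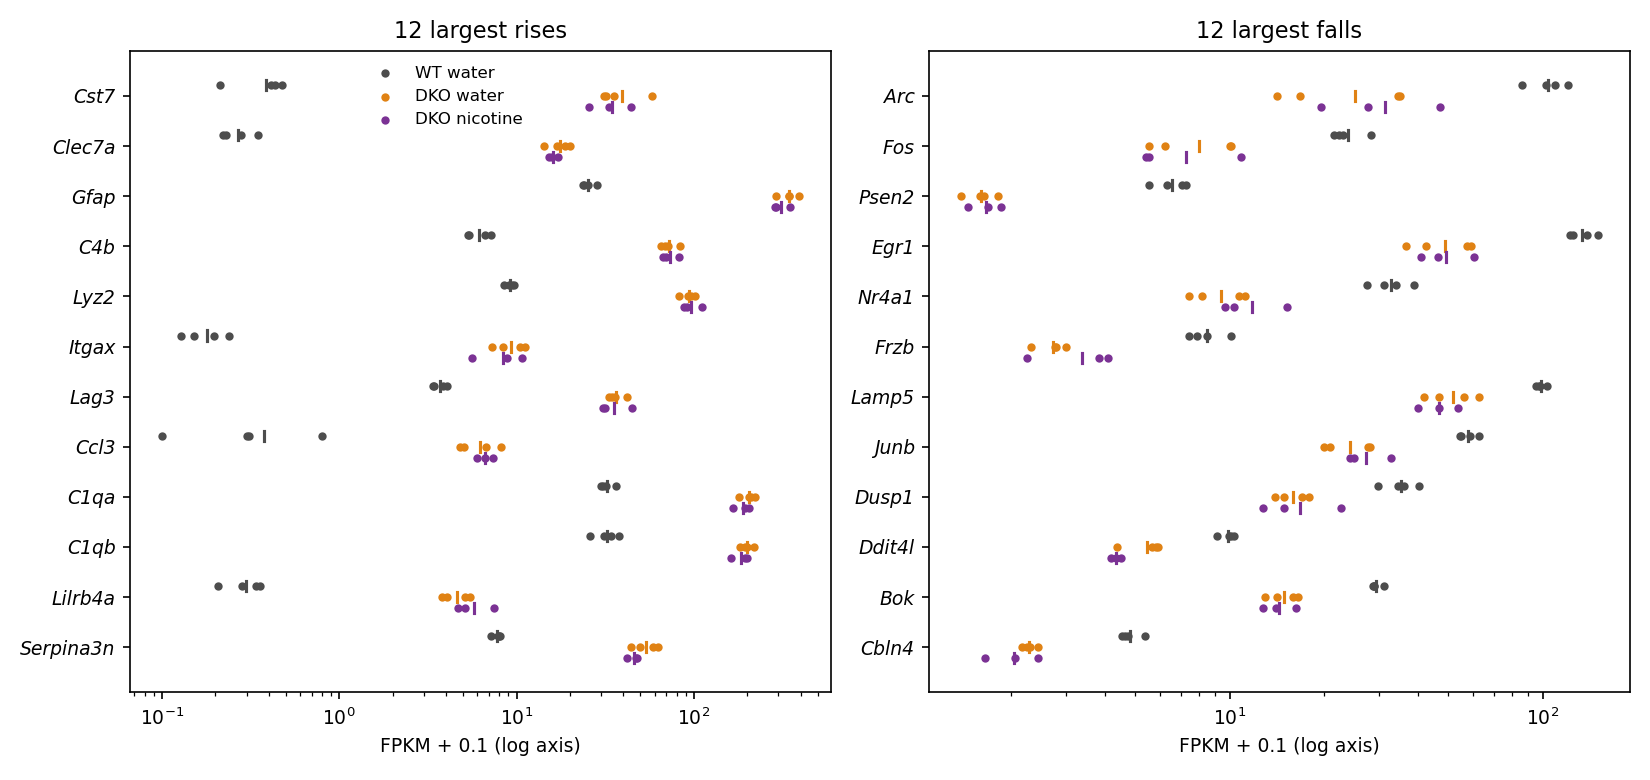
Each point is 1 library and each bar a group mean for the 12 largest rises (left) and the 12 largest falls (right), as FPKM + 0.1 on a log axis. The 24 genes were chosen among those in which DKO nicotine and WT water do not overlap. For those that passed the filter only through DKO nicotine, the filter sets this lack of overlap. The DKO water libraries are plotted between these 2 groups for orientation.

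Genes of the disease-associated microglial state rose as a body. Of 33 listed genes 32 were tested, and 29 rose and 0 fell, with a median difference of 1.53. Over all genes 25.6% were called higher, 11.9% lower and the median was 0.06, which is the background for every list before rescaling. The background of rescaled counts is 2076 higher and 2528 lower of 12467 genes, with a median of -0.01. After rescaling 28 of the 32 listed genes were higher and 1 lower, and 5 of the 32 passed the filter only through DKO nicotine. Ctss, the cysteine protease cathepsin S, was at 200, 233 and 209 FPKM in DKO nicotine and at 49.2, 51.5, 48.0 and 45.3 FPKM in WT water. With a difference of 2.12 (SE 0.07, limma adjusted p = 2.48e-12), it was among the abundant transcripts of the list, and each DKO nicotine value was above each WT water value. Cd68, a lysosomal membrane glycoprotein of phagocytes, rose from 6.92 ± 0.209 FPKM (SD, n = 4) to 40.7 ± 4.03 FPKM (SD, n = 3). The tetraspanin Cd9 rose from 25.6 ± 2.63 to 97.7 ± 3.82 FPKM. Apoe, the main lipid carrier of the brain, was the most abundant listed member in DKO nicotine and stood at 2192, 2034 and 2186 FPKM against 746, 829, 726 and 713 FPKM (log2 difference 1.5, SE 0.06). Gpnmb, a transmembrane glycoprotein of lipid-laden phagocytes, and Spp1, osteopontin, rose by 1.85 and 1.32 log2 units. The 3 members that did not pass were Fth1, ferritin heavy chain (0.03), Cadm1 (0.04) and Ank (-0.08).

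**Figure D3:**
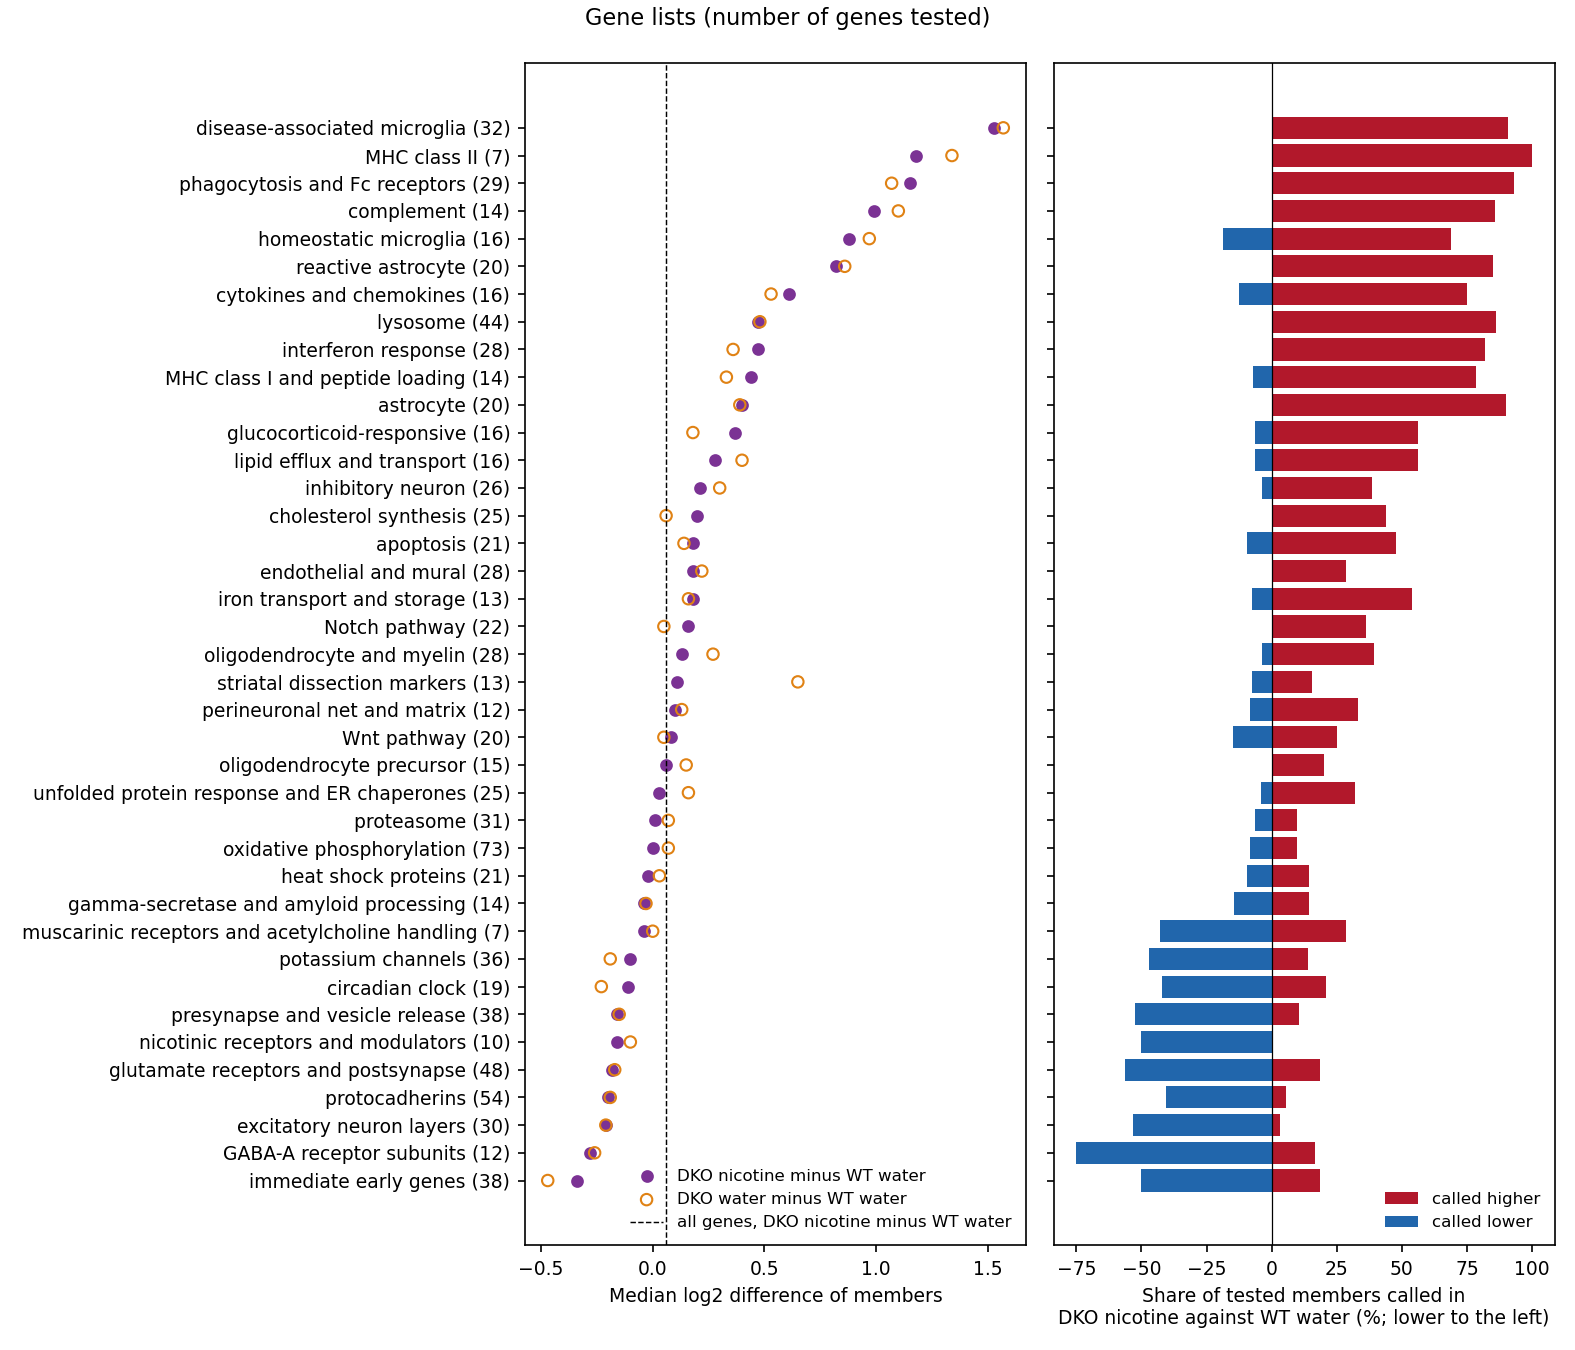
The left panel gives the median log2 difference of each gene list for DKO nicotine minus WT water (filled) and DKO water minus WT water (open), with the median of all genes as a dashed line. The right panel gives the share of tested members called higher (right) or lower (left) in DKO nicotine against WT water. Microglial, complement and phagocytic lists lie far to the right, near 1 or above, and immediate early genes lie lowest of the lists drawn, at -0.34. Lists of Y-linked genes, X-linked genes that escape inactivation and leukocyte markers are not drawn.

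The genes of resting microglia did not fall with this rise. Of 16 tested, 11 rose, 3 fell and the median difference was 0.88. Cx3cr1, the fractalkine receptor, stood at 28.9, 40.2 and 42.4 FPKM in DKO nicotine and at 16.1, 16.9, 15.1 and 14.7 FPKM in WT water (log2 difference 1.17). Csf1r, the receptor on which microglia depend for survival, was at 32.5, 51.0 and 40.4 FPKM against 21.5 to 23.5 FPKM (0.84). P2ry12, the purinergic receptor of surveying microglia, was not called: the libraries read 15, 16.3 and 17.6 FPKM in DKO nicotine and 15.1, 16.4, 15.7 and 15.5 FPKM in WT water, which overlap. Its difference was 0.05 (limma adjusted p = 0.573). The members that fell were Slc2a5, a fructose transporter (-0.43), Mef2c (-0.28) and Selplg (-0.25), the last not called without DKO nicotine replicate 3 (-0.18). Mef2c is also a transcription factor of excitatory neurons. Sparc, listed here for its place in microglial signatures, is also made by astrocytes and vessels, and rose from 56.3 ± 1.86 FPKM (SD, n = 4) to 154 ± 27.8 FPKM (SD, n = 3). In bulk tissue more cells of a type and more RNA per cell cannot be told apart.

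Complement, the opsonin cascade that also tags synapses for removal, was higher in DKO nicotine. Of 14 tested genes 12 rose and 0 fell (median 0.99), and 2 of the 14, C3 and C3ar1, passed the filter only through DKO nicotine. C1qa, C1qb and C1qc, the 3 chains of C1q that start the classical pathway, stood at 166 to 205, 162 to 199 and 135 to 168 FPKM in DKO nicotine and at 29.8 to 36.2, 25.7 to 37.7 and 30.4 to 37.0 FPKM in WT water. The log2 differences of the chains were 2.52, 2.49 and 2.18. C4b, the component cleaved next, rose most: its values were 67.0, 69.8 and 82.0 FPKM against 5.32, 6.51, 7.08 and 5.22 FPKM, a difference of 3.40 (SE 0.11, limma adjusted p = 1.17e-12). C4b has a near-identical neighbour in the mouse genome, and the treatment of reads shared with it was not stated. C3, on which all pathways converge, and C3ar1, the receptor for its small fragment, rose by 1.21 and 1.65. Among the inhibitors Serping1, the C1 inhibitor, rose by 0.41, a call lost after rescaling (0.34) and without DKO nicotine replicate 3 (0.24) or 2 (0.38) or WT water replicate 1 (0.35), 2 or 4 (0.40), while Cd59a, which blocks the final pore, was not called (0.07).

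Receptors and signalling proteins of phagocytosis showed the same direction, with 27 of 29 tested genes higher, 0 lower and a median of 1.15. Tyrobp, the adaptor DAP12 through which many microglial receptors signal, stood at 115, 107 and 83.7 FPKM against 20.9, 21.4, 17.6 and 18.2 FPKM, a difference of 2.32 (SE 0.11). Fcgr2b, the inhibitory receptor for immunoglobulin G, rose from 2.19 ± 0.342 FPKM (SD, n = 4) to 10.6 ± 1.19 FPKM (SD, n = 3). Tlr2, a receptor for bacterial lipoproteins, rose from 0.38 ± 0.115 to 4.89 ± 0.489 FPKM. It passed the filter only through DKO nicotine, so its lack of overlap is set by the filter. Of the 29, 7 passed only through that group.

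The lysosome, where engulfed material is broken down, followed. Of 44 tested genes 38 rose and 0 fell, with a median of 0.47, and 32 rose after rescaling. Of the 44, 1 passed the filter only through DKO nicotine. Ctsz, cathepsin Z, stood at 80.2, 89.5 and 76.2 FPKM against 27.3, 27.5, 25.1 and 28.3 FPKM (log2 difference 1.56, SE 0.06). Npc2, which hands cholesterol out of the lysosome, rose from 15.9 ± 0.192 FPKM (SD, n = 4) to 32.9 ± 1.64 FPKM (SD, n = 3). Proteases and glycosidases led the list, whereas the proton pump moved little: Atp6v1a was 0.12 higher, which was not called after rescaling (0.04) or without DKO nicotine replicate 2 or 3 or WT water replicate 1, 2 or 4 (0.10 to 0.12), and Atp6v0d1 (-0.01) and Atp6ap1 (0.05) were not called. Tfeb, a transcription factor of lysosomal genes, rose by 0.31.

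Astrocytes, the glia that buffer ions and transmitters, showed a reactive profile. Gfap, their intermediate filament, stood at 289, 349 and 288 FPKM in DKO nicotine and at 25.1, 28.3, 23.9 and 23.6 FPKM in WT water. The difference of 3.56 (SE 0.11, limma adjusted p = 1.12e-12) left the groups far apart. Serpina3n, a secreted protease inhibitor, rose from 7.67 ± 0.404 FPKM (SD, n = 4) to 45.6 ± 3.18 FPKM (SD, n = 3). Of 20 reactive astrocyte genes tested, 17 rose and 0 fell (median 0.82), and 3 of the 20, Aspg, Osmr and Cd44, passed the filter only through DKO nicotine. Among them were Vim, the filament vimentin (0.97), Osmr, the oncostatin M receptor (1.14), and Stat3, the transcription factor of the response (0.63). Some of the listed genes, such as Cd14 and Srgn, are also expressed by microglia, and 8 further listed genes, Lcn2 and Cxcl10 among them, did not reach the filter. Of 20 general astrocyte genes 18 rose and 0 fell, with a median of 0.40. Kcnj10, the potassium channel Kir4.1, stood out among them at 94.3, 91.4 and 93.6 FPKM against 35.4, 33.7, 32.8 and 35.3 FPKM (1.41, SE 0.06). Slc1a2, the main glutamate transporter, rose by 0.41 and Aldh1l1, a folate enzyme used as a general astrocyte marker, by 0.30.

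Interferon-stimulated genes rose moderately, 23 of 28 tested, with 0 lower and a median of 0.47, and 1 of the 28 passed the filter only through DKO nicotine. The DKO water median against WT water was 0.36 with 19 higher. None of the list was called between the knockout groups. Its mean level, as log2(FPKM + 1), was 2.16, 2.57 and 2.31 in DKO nicotine and 2.22 to 2.28 in DKO water. Irf8, a transcription factor that microglia also use for their identity, stood at 5.17, 6.76 and 5.88 FPKM against 1.20, 1.05, 1.18 and 1.23 FPKM (1.68, SE 0.08). Ifitm3, a membrane protein that blocks viral entry, read 24.2, 33.8 and 27.6 FPKM against 15.8, 12.5, 14.6 and 11.1 FPKM, without overlap. The classical early targets varied. Ifit3 rose by 0.67, above the list median, and Ifit1 by 0.35. Ifit1 was not called after rescaling (0.31) or without DKO nicotine replicate 2 (0.20) or 3 (0.34) or WT water replicate 1, 3 or 4 (0.31 to 0.36). Isg15 (0.13), Ifit2 (0.12) and Cmpk2 (0.09) were not called. In 11 of the 24 listed genes with a promoter window in the RefSeq table (45.8%), the window from 250 bases before to 50 bases after the start held the core of the interferon-stimulated response element, taken as 2 copies of GAAA with any 2 bases between them, on either strand. The same letters stood in 3.46% of 9983 windows of the genes tested. The 250 upstream bases of a called interferon gene and of a called MHC class I gene show how these letters sit, in capitals (RefSeq, GRCm38.p6, 5′ to 3′ on the gene's strand).

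Ifit3, chr19:34583279-34583528, plus strand: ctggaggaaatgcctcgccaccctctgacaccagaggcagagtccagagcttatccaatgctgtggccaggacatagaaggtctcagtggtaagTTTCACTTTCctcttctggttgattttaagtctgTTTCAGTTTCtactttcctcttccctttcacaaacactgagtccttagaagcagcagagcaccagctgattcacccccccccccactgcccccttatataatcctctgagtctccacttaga
B2m, chr2:122147437-122147686, plus strand: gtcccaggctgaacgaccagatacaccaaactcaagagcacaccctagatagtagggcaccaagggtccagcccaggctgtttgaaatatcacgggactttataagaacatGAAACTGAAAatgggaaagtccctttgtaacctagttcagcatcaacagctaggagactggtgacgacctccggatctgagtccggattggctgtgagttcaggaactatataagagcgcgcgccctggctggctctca

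The element appears in reverse in Ifit3, at 2 places, and once in B2m, with its first base 139 bases before the start. A match describes the letters and no binding was measured.

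MHC class I and peptide loading genes, which display peptides from inside the cell to T cells, rose in 11 of 14 tested and fell in 1 (median 0.44). B2m, the shared light chain, stood at 214, 254 and 211 FPKM against 107, 105, 94.8 and 92.7 FPKM, a difference of 1.17 (SE 0.08). The heavy chains H2-D1 and H2-K1, which belong to a family of similar genes whose reads can be split in counting, rose by 1.31 and 1.35, and H2-T23 fell by 0.28, a call lost without DKO nicotine replicate 3 or WT water replicate 2 (-0.22 in both). All 7 tested members of the class II list rose, with a median of 1.18, the protease Ctss from the microglial list among them. Cd74, the invariant chain, varied widely in DKO nicotine at 12.6, 28.1 and 23.9 FPKM, yet stayed above the 3.29 to 5.74 FPKM of WT water (2.08, SE 0.22).

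Among cytokines and chemokines 12 of 16 tested rose and 2 fell (median 0.61), and 3 of the 16, Ccl3, Ccl4 and Cxcl16, passed the filter only through DKO nicotine. Ccl6 and Ccl4, chemokines of myeloid cells, rose by 2.22 and 1.62, Tgfb1 by 1.15 and Csf1, a ligand of Csf1r, by 0.75. Csf1 stood at 11.3, 12.1 and 11.3 FPKM against 7.04, 5.93, 6.12 and 6.88 FPKM, whereas Il34, the other ligand of that receptor and a neuronal product, was not called (-0.02). Cx3cl1, the neuronal ligand of Cx3cr1, fell by 0.28 and Cxcl12 by 0.30, the latter not called without DKO nicotine replicate 1 (-0.23). The classical inflammatory cytokines Il1b, Il6 and Tnf did not reach the filter.

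Activity-regulated genes held the steepest falls. Immediate early genes are switched on within minutes of neuronal firing, and 19 of 38 tested were lower in DKO nicotine while 7 were higher, with a median of -0.34. Arc, a capsid-like protein that tunes AMPA receptors at synapses, stood at 46.9, 27.6 and 19.5 FPKM in DKO nicotine and at 109, 85.9, 102 and 120 FPKM in WT water. It fell by 1.78 log2 units (SE 0.37, limma adjusted p = 0.00117), and all 3 knockout libraries lay below the 4 normal ones despite their own spread. Fos, the AP-1 subunit, read 10.8, 5.30 and 5.45 FPKM against 21.5, 22.3, 23 and 28.3 FPKM. Egr1, a zinc finger transcription factor of the same response, read 60.4, 46.3 and 40.8 FPKM against 125, 122, 150 and 138 FPKM (-1.44, SE 0.17). The orphan nuclear receptor Nr4a1 read 15.2, 9.59 and 10.2 FPKM against 33.8, 27.4, 31.1 and 38.6 FPKM. In these 4 genes replicate 1 was the highest of the DKO nicotine libraries and still lay below every WT water library. Junb, another AP-1 subunit, fell by 1.06, and the phosphatase Dusp1, which switches off MAP kinases, by the same amount. Npas4, a transcription factor specific to neurons, fell by 0.91.

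Several members of the list moved upward instead. Of the 38, 1 passed the filter only through DKO nicotine, so its lack of overlap is set by the filter. Jun, the partner of Fos in AP-1, stood at 29.8, 23.5 and 31.1 FPKM against 12.7, 12.9, 13.6 and 13.4 FPKM, a rise of 1.03 (SE 0.08). Nptx2, a secreted pentraxin that gathers AMPA receptors on interneurons, rose from 19.2, 20.2, 20.1 and 20.6 FPKM to 59.6, 55.7 and 66.2 FPKM (1.54, SE 0.07, limma adjusted p = 8.25e-11). Atf3, a stress-induced transcription factor, rose by 1.05. Vgf, a secreted neuropeptide precursor and the most abundant listed transcript not called, overlapped between the groups at 66.7, 65.6 and 71.4 FPKM against 67.4, 70.8, 68.2 and 70.1 FPKM. In DKO water 25 of the 38 were lower and 8 higher against WT water, with a median of -0.47.

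**Figure D4:**
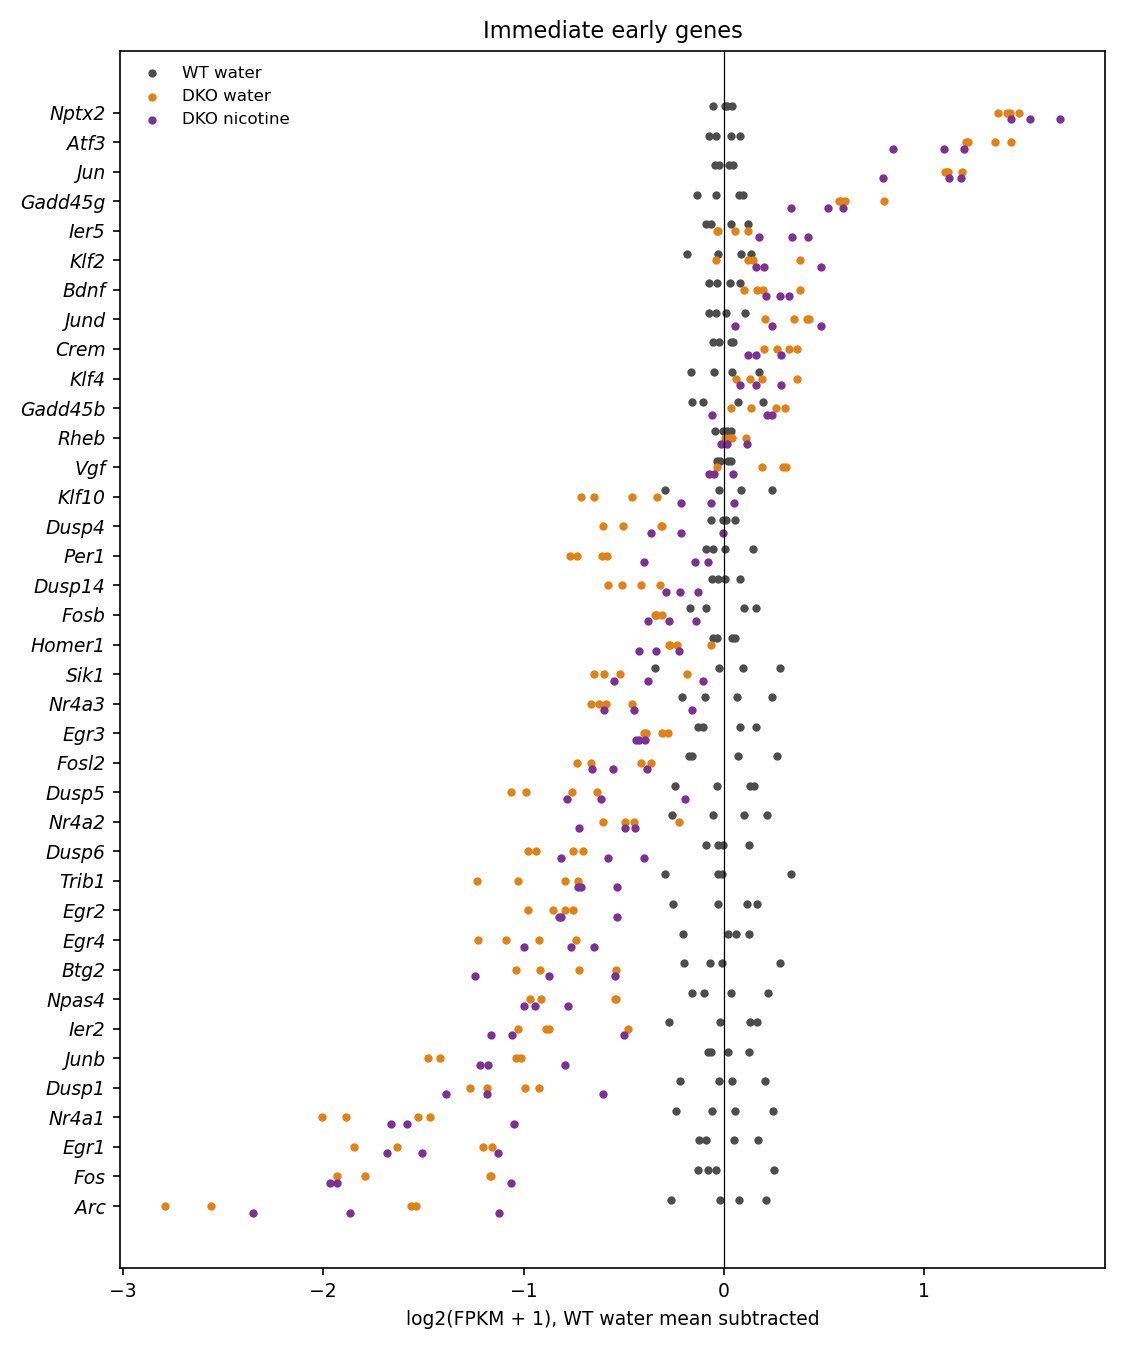
Each point is 1 library for the 38 immediate early genes tested, as log2(FPKM + 1) minus the WT water mean of the gene, ordered by the DKO nicotine mean. Arc, Fos, Egr1 and Nr4a1 lie furthest left in both knockout groups, while Nptx2 and Jun lie right of every WT water library.

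The cyclic AMP response element TGACGTCA, bound by CREB-family factors, was found on either strand in the windows of 2 of 27 immediate early genes with a window (7.41%) and in 3.59% of all windows. One of the 2 was that of Dusp1, whose 250 upstream bases are shown with the element in capitals, which overlaps no other motif searched (RefSeq, GRCm38.p6, 5′ to 3′ on the gene's strand).

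Dusp1, chr17:26508473-26508722, minus strand: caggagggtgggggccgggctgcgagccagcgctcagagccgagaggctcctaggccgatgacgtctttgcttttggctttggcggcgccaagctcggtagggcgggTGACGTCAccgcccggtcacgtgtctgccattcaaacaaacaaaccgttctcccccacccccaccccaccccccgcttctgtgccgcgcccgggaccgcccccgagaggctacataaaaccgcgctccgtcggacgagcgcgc

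Genes of the circadian clock, the feedback loop in which Clock and Arntl drive Per and Cry genes that then shut them off, were mixed. Of 19 tested, 4 were higher and 8 lower in DKO nicotine against WT water, and 2 higher and 9 lower after rescaling, with a median of -0.11. Hlf, a PAR leucine zipper factor, stood at 37.9, 35.3 and 31.6 FPKM against 53.8, 50, 52.5 and 52.4 FPKM (-0.57, SE 0.06), and Bhlhe40, the repressor DEC1, at 40.2, 45.6 and 36.1 FPKM against 62.9, 56.2, 66.4 and 60.5 FPKM (-0.59, SE 0.07). Both were below every WT water library. Npas2, a relative of Clock, fell by 0.30 and Arntl by 0.22, the latter not called without DKO nicotine replicate 1 or 2 or WT water replicate 4 (-0.20 to -0.19). Nr1d1, the repressor REV-ERB alpha, and Tef overlapped between the groups, at 60.4 to 63.4 against 62.8 to 70.8 FPKM and at 68.8 to 76.9 against 71.9 to 75.4 FPKM. Nr1d1 was called lower after rescaling (-0.19, limma adjusted p = 0.0048) and without WT water replicate 2 (-0.14, limma adjusted p = 0.0208). The 4 higher members were Bhlhe41, Dbp, Per3 and Nr1d2, and leaving out single libraries left 1 to 4 of the list called higher and 5 to 8 lower.

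Those 4 and Ciart were also 5 of the 20 genes that differed between DKO nicotine and DKO water. Ciart, a repressor of the clock loop, stood at 3.63, 3.84, 4.12 and 3.92 FPKM in DKO water, at 9.46, 6.85 and 5.87 FPKM in DKO nicotine and at 9.05, 8.11, 10.2 and 9.70 FPKM in WT water. It was 0.76 higher under nicotine than in knockout water (SE 0.11, limma adjusted p = 0.0147), and 1 of the 3 nicotine libraries lay inside the WT water range. Bhlhe41, the repressor DEC2, did not differ that way: DKO water (8.13, 8.67, 8.23 and 8.98 FPKM) covered the same range as most of WT water (8.13, 8.33, 9.60 and 8.32 FPKM), and DKO nicotine stood above both at 11.2, 11 and 11.2 FPKM. Dbp, a PAR zipper output gene of the clock, read 31.6, 33.7, 28.3 and 29.8 FPKM in DKO water, 34.9, 35.1, 39.6 and 36.0 FPKM in WT water and 49.9, 40.8 and 41.5 FPKM in DKO nicotine. Per3 and Nr1d2 followed the order of Dbp, with means of 4.50 and 27.2 FPKM in DKO water and single values of 5.72 to 7.29 and 30.7 to 34.5 FPKM in DKO nicotine. No time of day of tissue collection was stated, and its part in these values was not tested.

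**Figure D5:**
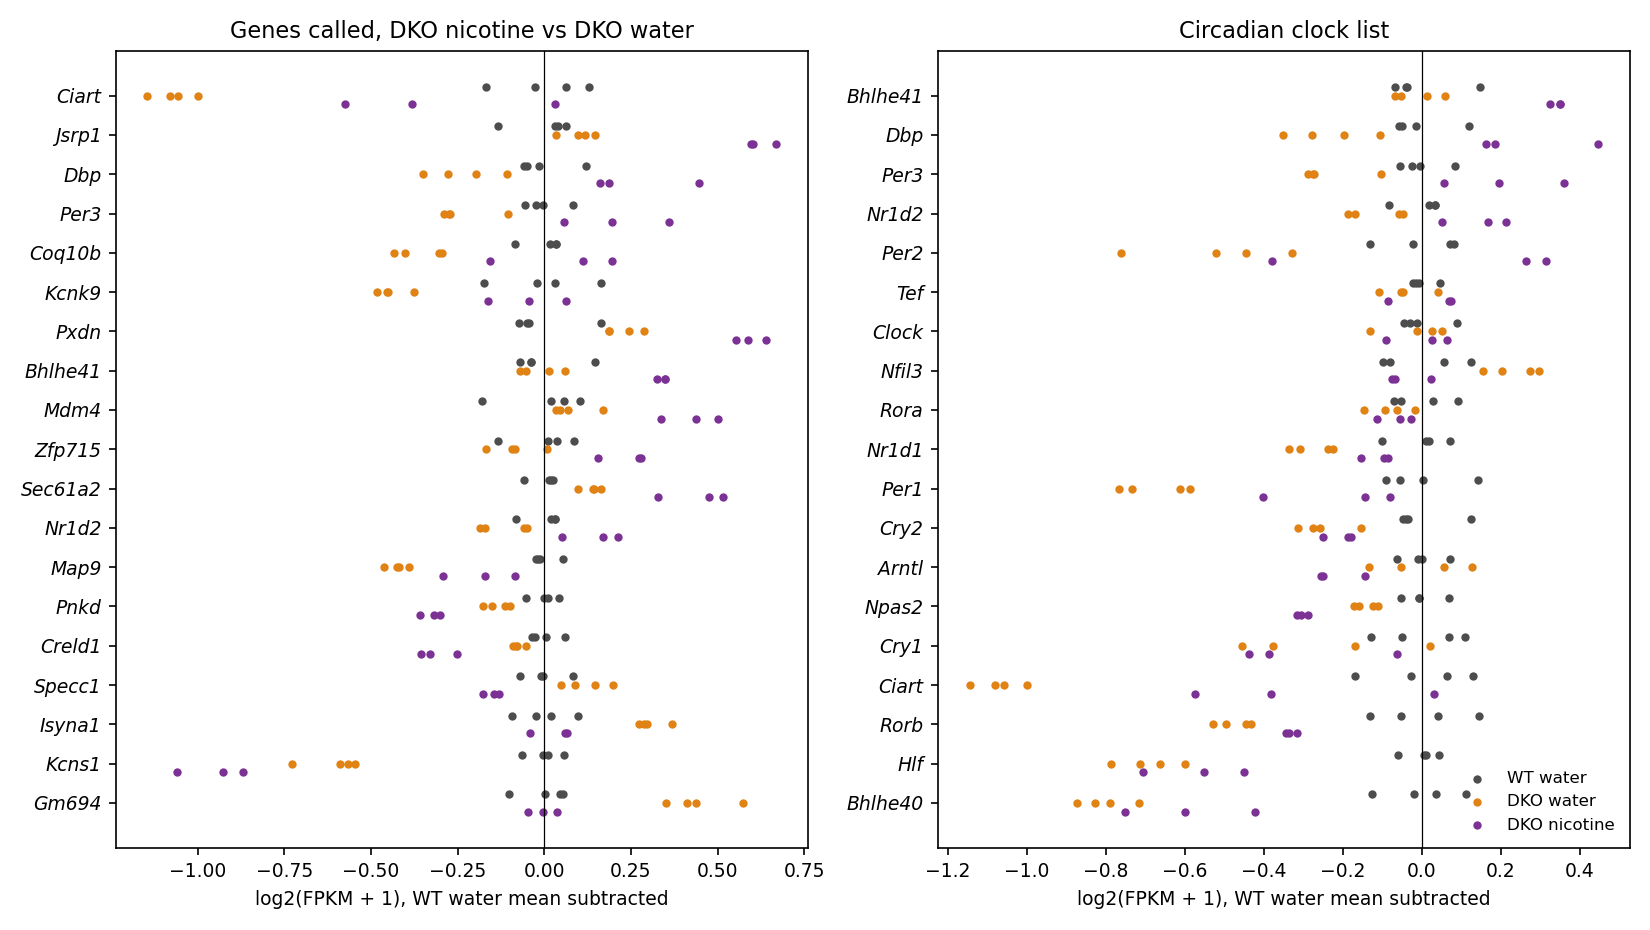
Each point is 1 library, as log2(FPKM + 1) minus the WT water mean of the gene: left, 19 of the 20 genes called between DKO nicotine and DKO water, and right, the 19 clock genes. Bhlhe41, Jsrp1 and Pxdn in DKO nicotine lie right of both other groups, Ciart lies right of every DKO water library, and Kcns1 lies left of both.

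The clock factors act through the E-box CACGTG, a palindrome that reads alike on both strands. It stood in the windows of 5 of 17 clock genes with a window (29.4%) and in 11.9% of all windows. Immediate early genes came near the clock share, with 7 of 27 (25.9%). Of the genes called between the knockout groups 3 of 17 held it (17.6%). Those 3 were Ciart and Bhlhe41, both also in the clock list, and Coq10b. Their 250 upstream bases are shown with each E-box in capitals (RefSeq, GRCm38.p6, 5′ to 3′ on the gene's strand).

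Ciart, chr3:95882229-95882478, minus strand: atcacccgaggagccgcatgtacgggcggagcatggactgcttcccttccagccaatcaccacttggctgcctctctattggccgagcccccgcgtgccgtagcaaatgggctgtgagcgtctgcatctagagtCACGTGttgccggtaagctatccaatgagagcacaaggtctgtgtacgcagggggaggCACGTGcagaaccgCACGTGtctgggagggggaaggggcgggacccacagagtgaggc
Bhlhe41, chr6:145865421-145865670, minus strand: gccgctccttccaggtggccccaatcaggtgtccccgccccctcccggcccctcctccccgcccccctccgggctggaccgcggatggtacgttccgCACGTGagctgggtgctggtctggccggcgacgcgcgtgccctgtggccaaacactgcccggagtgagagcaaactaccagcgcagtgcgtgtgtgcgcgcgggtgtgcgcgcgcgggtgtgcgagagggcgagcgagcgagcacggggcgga
Coq10b, chr1:55052520-55052769, plus strand: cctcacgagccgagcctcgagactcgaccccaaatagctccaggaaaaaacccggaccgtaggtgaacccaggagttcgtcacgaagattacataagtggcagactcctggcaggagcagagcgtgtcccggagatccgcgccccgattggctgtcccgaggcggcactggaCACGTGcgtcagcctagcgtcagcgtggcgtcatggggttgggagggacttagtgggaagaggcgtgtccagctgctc

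Ciart held 3 copies, the first starting 116 bases before the start, and the other two genes 1 copy each.

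The remaining genes called between the knockout groups fell into different positions relative to the normal cortex. Kcnk9, a leak potassium channel, stood at 8.52 to 9.25 FPKM in DKO water and at 11.9, 12.9 and 10.9 FPKM in DKO nicotine, inside the 10.8 to 13.9 FPKM of WT water. Isyna1, which makes inositol phosphate, was high in DKO water (19.9 to 21.3 FPKM) and lay at 17.1, 15.8 and 17.0 FPKM in DKO nicotine, within the 15.2 to 17.5 FPKM of WT water. Coq10b, a coenzyme Q binding protein, read 18.8, 17.7 and 14.5 FPKM against 15.3 to 16.7 FPKM in WT water and 11.8 to 13.1 FPKM in DKO water. Each of these was not called against WT water, which does not show that the levels are the same. Other genes stood further from WT water under nicotine than on water. Kcns1, a modulatory subunit of Kv2 potassium channels, stood at 4.66, 4.17 and 4.90 FPKM in DKO nicotine, 5.5 to 6.38 FPKM in DKO water and 9.30 to 10.2 FPKM in WT water, which made it 0.95 lower than WT water (SE 0.06) and 0.34 lower than DKO water (SE 0.06). Pxdn, a matrix peroxidase, stood at 15.5, 16.1 and 15.1 FPKM against 11.5 to 12.4 FPKM in DKO water and 9.44 to 11.3 FPKM in WT water. Jsrp1, a protein of the sarcoplasmic reticulum in muscle, read 5.19, 5.22 and 5.51 FPKM against 3.19 to 3.53 and 2.73 to 3.28 FPKM. Mdm4, an inhibitor of p53, and Sec61a2, a translocon subunit, were likewise 0.42 and 0.44 higher than in WT water, while Creld1 and Pnkd were 0.31 and 0.32 lower on the log2 scale. Of the other called genes, Gm694 and Specc1 were 0.45 and 0.27 lower than in DKO water, and Map9, a microtubule protein, and Zfp715, a zinc finger gene, were 0.24 and 0.32 higher. Striatal markers moved along this contrast, with a list median of 0.65 for DKO water minus WT water, 0.11 for DKO nicotine minus WT water and -0.34 for DKO nicotine minus DKO water, and their part in these 20 genes was not tested.

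Synaptic genes were lower in DKO nicotine, by small amounts. Of 48 glutamate receptor and postsynaptic genes 27 fell and 9 rose (median -0.18), and of 38 presynaptic genes 20 fell and 4 rose (median -0.16). After rescaling the counts were 30 against 5 and 26 against 4. Camk2a, the calcium-dependent kinase of postsynaptic densities, stood at 527, 591 and 528 FPKM against 722, 733, 715 and 731 FPKM (-0.40, SE 0.05). Grm2, a presynaptic metabotropic glutamate receptor, showed the largest fall of its list, with 12.2, 14.1 and 13.5 FPKM against 22.6, 26, 25.8 and 22.4 FPKM (-0.82, SE 0.07). The scaffold Dlgap3 fell by 0.41 and Iqsec2, an exchange factor at synapses, by 0.45. On the presynaptic side Stx1a, a SNARE protein of vesicle fusion, read 101, 103 and 90.9 FPKM against 143, 144, 142 and 139 FPKM (-0.53, SE 0.04). Slc17a6, the vesicular glutamate transporter of deep and subcortical neurons, fell by 0.74 to 1.77, 1.90 and 2.39 FPKM. Slc17a7, its cortical counterpart, was not called (0.03). Among the genes that rose were the NMDA receptor subunits Grin2c and Grin2d (0.34 and 0.38) and the vesicle proteins Doc2a (0.47) and Syn3 (0.30).

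Markers of excitatory layers were lower in 16 of 30 tested genes and higher in 1, with a median of -0.21, and 2 were higher without DKO nicotine replicate 3 or WT water replicate 1 and 3 without WT water replicate 3. Lamp5, a membrane protein of upper-layer neurons and of a class of interneurons, was at 53.5, 46.7 and 39.9 FPKM against 103, 97.8, 95.3 and 97.5 FPKM, a fall of 1.07 (SE 0.11, limma adjusted p = 1.14e-06). Neurod6, a transcription factor of excitatory neurons, fell by 0.71 and the somatostatin receptor Sstr2 by 0.77. The deep-layer factors Tle4 (-0.12), Foxp2 (-0.10) and Bcl11b (0.14) were not called. Of 26 inhibitory neuron genes 10 were higher and 1 lower (median 0.21). Their mean level, as log2(FPKM + 1), was 4.29, 4.13 and 4.44 in DKO nicotine and 3.97 to 4.09 in WT water, while that of the striatal markers was 3.88, 3.40 and 3.88 against 3.28 to 3.69. DKO nicotine replicate 2 was the lowest of its group in both lists, and the part of striatal tissue in the inhibitory counts was not tested. Vip, a peptide of interneurons that disinhibit the cortex, stood at 59.3, 54.7 and 72.4 FPKM against 28.9, 33.3, 26.9 and 29.2 FPKM (1.04, SE 0.08), and Crh and Tac2, peptides of related cells, rose by 0.83 and 0.78. Pvalb, the calcium buffer of fast-spiking cells, rose by 0.45, which was not called without DKO nicotine replicate 1 (0.31) or WT water replicate 3 (0.36), while Sst was not called (0.18). Cort, a peptide related to somatostatin, fell by 0.58, a call lost without DKO nicotine replicate 2 (-0.44) or 3 (-0.57) or WT water replicate 4 (-0.51).

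Receptors for GABA were mostly lower: 9 of 12 tested subunits fell and 2 rose (median -0.28). Gabra2 stood at 10.8, 11.6 and 9.69 FPKM against 17.6, 17.6, 26.8 and 17.8 FPKM, where 1 WT water library was high, and fell by 0.82 (SE 0.11). Gabra3, an alpha subunit encoded on the X chromosome, read 45.7, 47.8 and 44.6 FPKM against 55.3, 54.9, 58.4 and 57.4 FPKM (-0.29, SE 0.04). The exceptions were Gabrg3 (0.18) and Gabrb1 (0.15), and neither stayed called higher after rescaling or without DKO nicotine replicate 1 or 2 or WT water replicate 3, and leaving out WT water replicate 1 or 4 left 1 of them.

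The nicotinic receptors, the targets of the drug, were low in this tissue. Their list also holds modulators such as Lynx1, and 10 of its 20 genes present did not reach the filter. Of 10 tested, subunits and modulators together, 5 fell and 0 rose (median -0.16). After rescaling 7 fell (median -0.24), and without DKO nicotine replicate 3 the count was 3. Chrna4, the alpha subunit of the high-affinity receptor, stood at 9.12, 8.76 and 8.89 FPKM in DKO nicotine and at 12.3, 11.6, 13.2 and 11.2 FPKM in WT water (-0.40, SE 0.07, limma adjusted p = 0.000512). Chrnb2, its partner subunit, overlapped between the groups at 11.5, 12 and 12.1 FPKM against 12, 12.3, 13 and 13.3 FPKM (-0.08, SE 0.05), and was called lower after rescaling (-0.16, limma adjusted p = 0.0353). Chrna7, which forms a channel alone, read 4.89, 5.25 and 5.25 FPKM against 6.05, 5.42, 6.71 and 7.11 FPKM and fell by 0.25, a call that was lost when DKO nicotine replicate 1 or 3 or WT water replicate 3 or 4 was left out, at differences of -0.27 to -0.20. Lynx1, a membrane-anchored brake on nicotinic receptors, fell by 0.35. DKO water stood at means of 9.56 FPKM for Chrna4, 13 FPKM for Chrnb2 and 5.90 FPKM for Chrna7, and none of the nicotinic genes was called between the knockout groups. Of 7 muscarinic and acetylcholine-handling genes 2 rose and 3 fell, and without DKO nicotine replicate 3 or WT water replicate 1 a single one rose. The receptors Chrm1 and Chrm3 fell by 0.36 and 0.47, and Ache, which degrades acetylcholine, rose from 12.7, 13.1, 12.8 and 14.1 FPKM to 17.0, 16.5 and 17.7 FPKM (0.35, SE 0.07).

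Lipid transport moved with the glial genes. Of 16 tested genes of lipid efflux and transport 9 rose and 1 fell (median 0.28), among them Apoe as given above and Abca1, the pump that loads lipid onto it, at 8.09, 10.4 and 9.33 FPKM against 4.56, 4.27, 4.37 and 5 FPKM (0.88, SE 0.08). Abcg1, a related pump, fell by 0.17, and 1 of the 16 passed the filter only through DKO nicotine. In cholesterol synthesis 11 of 25 tested genes rose and 0 fell (median 0.20), and after rescaling 8 rose and 1 fell. The DKO water median against WT water was 0.06, with 5 higher and 1 lower. Msmo1, a sterol oxidase, stood at 61.9, 47.5 and 53.1 FPKM against 41.5, 41.7, 40.3 and 40.9 FPKM (0.38, SE 0.07). Leaving out DKO nicotine replicate 1 reduced the list to 7 called genes.

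Among iron genes 7 of 13 tested rose and 1 fell (median 0.18). Ftl1, ferritin light chain, stood at 421, 379 and 442 FPKM against 225, 243, 212 and 205 FPKM (0.90, SE 0.06), and Hmox1, which frees iron from haem, rose by 0.85, while Tfrc, the receptor that takes iron up, fell by 0.33. Of 16 glucocorticoid-responsive genes 9 rose and 1 fell (median 0.37), against 4 and 2 in DKO water (median 0.18). The metallothionein Mt2 read 134, 123 and 159 FPKM against 61.4, 67.3, 62.0 and 66.6 FPKM (1.09, SE 0.09), and Fkbp5, a co-chaperone of the glucocorticoid receptor, and Sgk1, a kinase it induces, rose by 0.40 and 0.46. The call of Sgk1 was lost after rescaling (0.38) and without DKO nicotine replicate 1 or 2 or WT water replicate 1 or 3 (0.40 to 0.42). Tsc22d3, another of its direct targets, was not called (0.07), and Dusp1 was the member that fell.

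Potassium channels were lower in 17 of 36 tested genes and higher in 5 (median -0.10), and 17 were lower and 2 higher after rescaling. The count higher was also 2 without DKO nicotine replicate 1 or WT water replicate 1 and 3 without WT water replicate 2, 3 or 4. Kcnh3, a voltage-gated channel of the forebrain, stood at 27.3, 25.1 and 24.7 FPKM against 38.4, 39.6, 38.0 and 38.3 FPKM (-0.57, SE 0.04). Kcnk4, a mechanosensitive leak channel, fell by 0.61 and Kcna2 by 0.39, whereas the largest rise was that of the glial channel Kcnj10. Of 54 protocadherins, adhesion proteins that give neurons their identity codes, 22 fell and 3 rose (median -0.20). Pcdhga2, Pcdhga3 and Pcdhga8 fell by 0.64, 0.60 and 0.62, and the reads of these clustered genes cannot be assigned with certainty, since each joins its own first exon to shared last exons. Pcdh15, a cadherin of hair cells outside the clusters, rose by 0.76, from 0.907 to 1.24 FPKM in WT water to 2.26 to 2.67 FPKM.

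The other parts of gamma-secretase were not called. Of 14 genes of the protease and of amyloid processing 2 rose and 2 fell, Psen2 among the latter. Ncstn, the substrate-binding subunit (-0.13), Aph1a, a scaffold (-0.02), and Psenen, the activating subunit (0.17), did not pass the test. App, the amyloid precursor, stood at 321, 326 and 332 FPKM against 389, 379, 395 and 388 FPKM (-0.25, SE 0.03), and the alpha-secretases Adam10 and Adam17 rose by 0.26 and 0.46. Rescaling called 5 of the list lower. Of 22 Notch pathway genes 8 rose and 0 fell, and 6 rose and 2 fell after rescaling. Notch1, not called without DKO nicotine replicate 3 (0.25), and Notch2 rose by 0.28 and 0.43 and the fringe enzymes Lfng and Mfng by 0.34 and 0.56. The target genes Hes1 (0.23), Hes5 (-0.25) and Hey1 (-0.07) were not called.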

How the data were processed

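Gene expression was measured by RNA-seq of mouse prefrontal forebrain cortex. RNA was isolated with TRIzol and made into stranded TruSeq mRNA libraries from 1 µg, per the labels' protocols. Per the submitters' processing notes the genome build was GRCm38.p6. Aligner, counter and strand setting were not given in the sources used here, which leaves overlapping, antisense and near-identical genes uncertain. For each library the authors deposited 1 table without a unit in its header. The deposited values were treated as FPKM. For each gene a step was sought of which its values, corrected for depth, are whole multiples within a tolerance of 0.02 reads. The share of values that met this (100%) covers only genes for which a step was found. It is thus set by the search and does not test the unit. Reads and depth were recovered from these steps. Each table held 21878 rows, 3760 of them at 0 in every library, and 27 gene names that had turned into dates were restored. Genes of the mitochondrial genome were not analysed here.

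Groups came from the labels. A count model had been planned only for files that hold counts, so limma 3.58.1 in R 4.3.3 was used on log2(FPKM + 1), with an intensity trend, all 15 libraries in 1 fit and no block; fold changes on this scale understate those of low genes. Benjamini-Hochberg adjustment ran over the 12467 genes of each contrast, and a gene was called at an adjusted p under 0.05. Among the members, 260 reached 1 FPKM in exactly 3 of the 7 libraries, and 187 further genes did so in exactly 2. The alternatives were median-of-ratios rescaling, no filter, a filter at 5 FPKM, a pseudocount of 0.1, no trend, only the groups compared, the replicate number as a block, autosomal genes only, limma voom on recovered reads, and each library left out. Python 3.11.15 with pandas 2.3.3 and matplotlib 3.10.9 served for tables and plots.

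The members, the 42 gene lists and the motifs were chosen with earlier results of these data known, so lists are described by counts and medians, with no test, to be read against the shares and the median of all genes. The 184 named genes, of which 179 are reported here, followed a rule: the targeted gene, the 12 largest rises and falls among called genes without overlap that have a gene name and a higher mean of 1 FPKM or more, up to 4 called members per list with the smallest p (up to 2 of the highest level where none was called), all genes called between the knockout groups, nicotinic subunits, and the 3 highest clock and immediate early genes. Further list members are given by their log2 difference, and these, Wdr11 and Rpl34-ps1 were chosen after their values were seen. Coordinates and promoter sequences are those of RefSeq on GRCm38.p6, in which 21727 rows matched and 151 did not; 9983 of the 12467 genes had a promoter window.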

Additional observations from a re-analysis of the deposited data

Results flagged for a closer look

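In 14 of the 179 named genes reported here 1 WT water library stood apart from the other 3, by a gap that was large against the range of the group (Dixon's criterion at 95%). Chance flags about 1 in 20 groups, and the 3 DKO nicotine libraries are too few to be examined this way. In replicate 3 of WT water the values were 9.6 FPKM for Bhlhe41, 51.6 for Neurod6, 26.8 for Gabra2, 40.2 for Chrm1, 4.1 for Lpl and 8.41 for Sec61a2. In replicate 4 they were 21.3 FPKM for Numbl, 10.2 for Pdyn, 16.4 for Pmvk, 11.3 for Pxdn and 26.3 for Map9. In replicate 2 they were 31.0 FPKM for Bok, 27.9 for Nr1d2 and 15.3 for Coq10b. Of these 14 genes, Nr1d2 lost its call when a WT water library, replicate 2, was left out, at a difference of 0.12.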

How the results depend on the processing

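Against WT water, genes called higher ranged from 2509 to 3032 and genes called lower from 1176 to 1386 when single libraries were left out, the lowest in both without DKO nicotine replicate 3. Median-of-ratios rescaling gave 2076 higher and 2528 lower, and a filter at 5 FPKM left 2066 higher, with fewer genes tested. With only the groups compared 2895 were higher and 1314 lower, and voom gave 3271 and 1505. Same-numbered DKO nicotine and WT water libraries deviated from their group means with correlations of 0.048, -0.106 and 0.059. Pairs of these groups with unlike numbers gave -0.155 to 0.108. No pairing by number was seen, but so few libraries cannot exclude it. The replicate block gave 2848 higher and 1329 lower. For DKO nicotine against DKO water, genes called higher were 8 after rescaling, 20 with the filter at 5 FPKM, 7 under the replicate block, 71 with voom and 0 with only the groups compared. Genes called lower were 4 without a filter, 4 without a trend, 16 with voom and 0 with only the groups compared. Leaving out single libraries gave 1 to 44 higher and 0 to 13 lower. The cause of these shifts was not tested. Of 172 named genes called against WT water, 20 lost the call under at least 1 alternative and 0 reversed. Chrna7 lost it under the replicate block (-0.21), Per3 and Nr1d2 after rescaling (0.13 and 0.07) and Ciart without DKO nicotine replicate 3 (-0.18). Oxidative phosphorylation turned from 7 higher and 6 lower to 1 and 17 after rescaling, and proteasome genes from 3 and 2 to 0 and 9. All 12467 genes together turned from 3189 higher and 1485 lower to 2076 and 2528, the background of these rescaled counts. Depth limits genes near 1 FPKM, and 3 libraries limit every DKO nicotine estimate.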

Other observations

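Lists of other cell types of the cortex lay nearer to the background of all genes, of which 25.6% were called higher and 11.9% lower (median 0.06). Of 28 oligodendrocyte and myelin genes 11 rose and 1 fell against WT water (median 0.13), and 7 rose and 2 fell after rescaling (median 0.05). Without DKO nicotine replicate 3 the count higher was also 7. Mog, a surface protein of myelin, stood at 24.7, 19.1 and 23.8 FPKM against 18, 18, 16.7 and 18.2 FPKM, while Mbp, the main basic protein of myelin, was not called (-0.12). Of 15 precursor genes 3 rose and 0 fell, and 1 rose without DKO nicotine replicate 2. Of 28 endothelial and mural genes 8 rose and 0 fell (median 0.18), a count higher near the 25.6% of all genes, led by Ly6a and Ly6c1 (0.65 and 0.64), surface proteins of brain endothelium with similar family members. Cldn5, the tight junction claudin, varied among DKO nicotine libraries at 21.3, 21.0 and 32.9 FPKM against 17.1 to 21.0 FPKM (0.37), and was not called after rescaling (0.29) or without DKO nicotine replicate 3 (0.16) or WT water replicate 1, 3 or 4 (0.33 to 0.38).

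Of 21 apoptosis genes 10 rose and 2 fell, and 5 and 3 did after rescaling. Bok, a pore-forming BCL2 relative abundant in neurons, fell from 28.7, 31.0, 28.8 and 28.9 FPKM to 16.2, 12.7 and 14.0 FPKM (-0.99, SE 0.08, limma adjusted p = 7.51e-08). Bcl2a1b, a survival factor of leukocytes with near-identical copies, rose by 1.87. Of 20 Wnt pathway genes 5 rose and 3 fell, shares near the 25.6% and 11.9% of all genes, and 1 passed the filter only through DKO nicotine. The count higher was 3 after rescaling or without WT water replicate 1 and 2 without DKO nicotine replicate 2 or 3. Secreted antagonists took opposite values: Frzb read 4, 3.72 and 2.15 FPKM against 10.0, 7.30, 8.37 and 7.80 FPKM (-1.15, SE 0.13), and Sfrp5 rose by 1.05 and Sfrp1 by 0.37, the latter not called without DKO nicotine replicate 3 (0.25). Of 12 matrix genes 4 rose and 1 fell (2 rose without WT water replicate 3, and 0 fell without DKO nicotine replicate 3), led by the metalloproteinase inhibitors Timp2 (0.56) and Timp3 (0.36). Ddit4l, an inhibitor of mTOR signalling, fell from 9.76 ± 0.544 FPKM (SD, n = 4) to 4.23 ± 0.157 FPKM (SD, n = 3), and Cbln4, a synaptic organiser, from 4.72 ± 0.384 to 1.96 ± 0.396 FPKM.

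Housekeeping lists stayed near the median of all genes: 73 oxidative phosphorylation genes at 0.00, 31 proteasome genes at 0.01, 25 genes of the unfolded protein response at 0.03 (8 higher, 1 lower; 5 higher and 4 lower after rescaling; 5 higher without DKO nicotine replicate 1 or 2 or WT water replicate 4) and 21 heat shock genes at -0.02 (3 higher, 2 lower; 6 lower after rescaling). In the unfolded protein response list 1 gene passed the filter only through DKO nicotine. Atf4, the transcription factor of the integrated stress response, stood at 62.0, 57.4 and 61.1 FPKM against 79.6, 81.3, 75.5 and 78.4 FPKM (-0.38, SE 0.04), while the chaperone Hspa5 was not called (0.02). Of 4 X-linked genes that escape inactivation only Kdm6a was called, at 5.51, 6.76 and 5.87 FPKM against 4.56 to 5.49 FPKM, and without DKO nicotine replicate 2 its difference of 0.12 was not called.

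Wdr11, a WD-repeat protein of endosomal transport on chromosome 7, took graded values in single knockout libraries: 0.0368, 12.6 and 6.10 FPKM in DKO nicotine and 11.8, 6.41, 5.80 and 12.4 FPKM in DKO water, against 11.8, 11.9, 12.7 and 11.9 FPKM in WT water and 12.3, 12.7, 11.1 and 11.4 FPKM in WT nicotine. Its call against WT water (-1.49, SE 0.54, limma adjusted p = 0.0398) came with libraries that overlap. Rpl34-ps1, a ribosomal pseudogene whose reads can come from copies, showed 2 levels in the wild type, with 33.2, 31.5 and 32.2 FPKM in 3 WT water libraries and 6.69 FPKM in replicate 2, and stood at 6.19 to 7.78 FPKM in DKO nicotine.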
